A study of Homo sapiens with 3 samples.

Results

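Host genes of small RNAs are transcripts whose introns, or occasionally exons, contain a small nucleolar RNA (snoRNA) or a microRNA. They were chosen by symbol: SNHG followed by digits, with GAS5, DANCR, ZFAS1 and EPB41L4A-AS1, as snoRNA hosts, and symbols that begin with MIR and end with HG as microRNA hosts. This gave 116 genes, 32 snoRNA hosts and 84 microRNA hosts, of the 62754 genes measured. The RNA was polyadenylated RNA from 3 wild-type (WT) samples of primitive neural progenitor cells (pNPCs), an early neural stage that still divides, made from H1, an established human embryonic stem cell line. The growth protocol speaks of pNPCs made from both induced pluripotent and embryonic stem cells, and the labels give the embryonic line H1 for every library. All 3 libraries shared one medium, with N2, B27-RA, FGF2, the GSK3 inhibitor CHIR99021, hLIF, the TGF-beta receptor inhibitor SB431542 and the ROCK inhibitor Y-27632, and there was no second condition. The series concerns chimeric brain models of human glia and neurons.

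A snoRNA host is spliced and its introns are trimmed to snoRNAs, which guide chemical modification of ribosomal RNA: box C/D snoRNAs direct 2'-O-methylation and box H/ACA snoRNAs direct pseudouridylation. Small Cajal body RNAs (scaRNAs) do the same for spliceosomal RNAs. The spliced host RNA of this class often codes for no protein, and several such RNAs are known to start with a pyrimidine tract, like the messenger RNAs of ribosomal proteins, and to be removed by nonsense-mediated decay. A microRNA host is cut by DROSHA to release a hairpin that DICER1 trims to the mature microRNA, whose seed (bases 2 to 8) pairs with target messenger RNAs.

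The microRNAs whose hosts are named as a contrast of neural, dividing and pluripotent cells are shown first, 5' to 3', with the seed in capitals, from RefSeq on GRCh38.p14. MIR17HG (chr13:91347687-91354577, plus strand) carries 6 microRNA genes of a cluster known as a MYC target that favours proliferation, and their main arms fall into 4 seeds.
hsa-miR-17-5p: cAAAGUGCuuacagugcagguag
hsa-miR-20a-5p: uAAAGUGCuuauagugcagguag
hsa-miR-18a-5p: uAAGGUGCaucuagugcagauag
hsa-miR-19a-3p: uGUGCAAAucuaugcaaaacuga
hsa-miR-19b-3p: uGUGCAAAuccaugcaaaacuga
hsa-miR-92a-3p: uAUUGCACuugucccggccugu

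MIR302CHG (chr4:112646720-112650051, minus strand) carries 5 microRNA genes, a cluster known from pluripotent stem cells. Its miR-302 members share one seed, and miR-367-3p has the seed of miR-92a-3p in MIR17HG.
hsa-miR-302a-3p: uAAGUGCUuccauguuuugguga
hsa-miR-302b-3p: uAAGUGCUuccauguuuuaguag
hsa-miR-302c-3p: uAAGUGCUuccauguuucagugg
hsa-miR-302d-3p: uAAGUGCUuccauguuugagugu
hsa-miR-367-3p: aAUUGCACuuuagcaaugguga

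The neural microRNA miR-9 comes from several loci with the same mature 5p arm, 2 of them in members: MIR9-1HG (chr1:156404252-156429548, minus strand) and MIR9-3HG, whose microRNA arm lies at chr15:89368032-89368054 on the plus strand.
hsa-miR-9-5p: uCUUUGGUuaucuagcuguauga

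MIR100HG (chr11:122028329-122422871, minus strand) and MIR99AHG (chr21:16070488-16631727, plus strand) carry paralogous clusters that share 3 seeds, shown because both hosts were among the most abundant of their class. The let-7 seed GAGGUAG, a family known to oppose stem cell programmes, occurred in 7 microRNA hosts in all.
hsa-miR-100-5p: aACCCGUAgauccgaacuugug
hsa-miR-99a-5p: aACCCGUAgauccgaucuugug
hsa-miR-125b-5p: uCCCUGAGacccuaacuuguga
hsa-let-7a-5p: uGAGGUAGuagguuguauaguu
hsa-let-7c-5p: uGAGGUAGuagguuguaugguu

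None of these mature microRNAs was measured, only their host transcripts. Of the 119 microRNA genes that lie inside microRNA hosts in RefSeq, 118 were listed in the deposited tables and 0 had a count in any library. For 115 of them the effective length, the number of positions where a fragment of the library could start, was 0 in all 3 libraries. Of the 151 snoRNA and scaRNA genes inside snoRNA hosts, 136 were listed, 110 had an effective length of 0 throughout, and 7 had any count, with sums of 19.3, 17.1 and 10.7 expected counts in replicates 1, 2 and 3. The values below are therefore levels of host RNA and not of small RNA.

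Total expected counts, RSEM's estimates of reads per gene, were 34658454 for replicate 1, 38400092 for replicate 2 and 30038114 for replicate 3. Levels are given as TPM, which corrects a gene's reads for its length and the library's depth, and a gene is called detected where it reached at least 1 TPM in all 3 libraries. Intervals and floors cover counting error only. Of 10 neural progenitor markers 8 were detected, with summed levels of 2555, 2621 and 2305 TPM in replicates 1, 2 and 3. Most of this was VIM at 1724 to 2113 TPM, while PAX6 stood at 0.13, 0.81 and 0.38 TPM. Replicate 1 was the highest library of SOX2 (97.8, 46.3 and 63.4 TPM), of SOX3 (85.8, 36.1 and 41.99 TPM), of FABP7, of SOX1 and of HES5. NES, VIM and PAX6 were highest in replicate 2, and MSI1 and CDH2 in replicate 3. Of 10 neuron markers 9 were detected, with the highest sum, 615 TPM, in replicate 1 and 446 and 450.2 TPM in the others. All 8 mesenchyme and neural crest markers were detected, with the lowest sum, 656 TPM, in replicate 1 and 975 and 1320.2 TPM in the others. DPPA4 was the 1 of 8 pluripotency markers detected, POU5F1 stood at 0.08 to 0.14 TPM, and 0 of 6 microglia markers were detected. In the test of spread described below, the neural progenitor markers HES5 and SOX3 and the neuron markers ELAVL4 and STMN2 were called, 2 of 9 tested in each list, where 1.59% of all genes tested were called. SOX3, ELAVL4 and STMN2 did not pass without replicate 1 (adjusted p = 1.00, 0.152 and 0.625), 0 of the 4 passed without replicate 2 (0.368 to 1.00), and SOX3 did not pass without replicate 3 (0.115) or with a single dispersion (0.116). Replicate 1 stood apart in its counts: the chi-square per degree of freedom over genes was 82.5 against replicate 2 and 82.6 against replicate 3, and 19.4 between replicates 2 and 3.

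The snoRNA hosts were abundant and the microRNA hosts were low. Of the 32 snoRNA hosts 28 were detected (87.5%), against 24 of 84 microRNA hosts (28.6%), where 23% of all genes and 45.3% of the genes with a count were detected. All 3 libraries had at least 10 TPM of 23 snoRNA hosts and of 0 microRNA hosts, and at least 100 TPM of 9 snoRNA hosts and of 0 microRNA hosts. Of all 62754 genes, 8445 reached 10 TPM and 1302 reached 100 TPM in all 3 libraries. The class median of log2(TPM + 1), a scale with a pseudocount of 1 that understates differences of low genes, was 5.33 ± 0.02 (SD, n = 3) for snoRNA hosts and 0.18 ± 0.03 for microRNA hosts. Over the genes with a count it was 0.86, 0.90 and 1.04 in replicates 1, 2 and 3, and over all genes it was 0. Within a library the snoRNA host median exceeded the microRNA host median by 5.18, 5.15 and 5.12, a spread far smaller than the difference. Without replicate 1, the library that stood apart, 28 snoRNA hosts and 25 microRNA hosts were detected and the difference was 5.14. The members were chosen with results known, so this difference has no p.

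**Figure D1:**
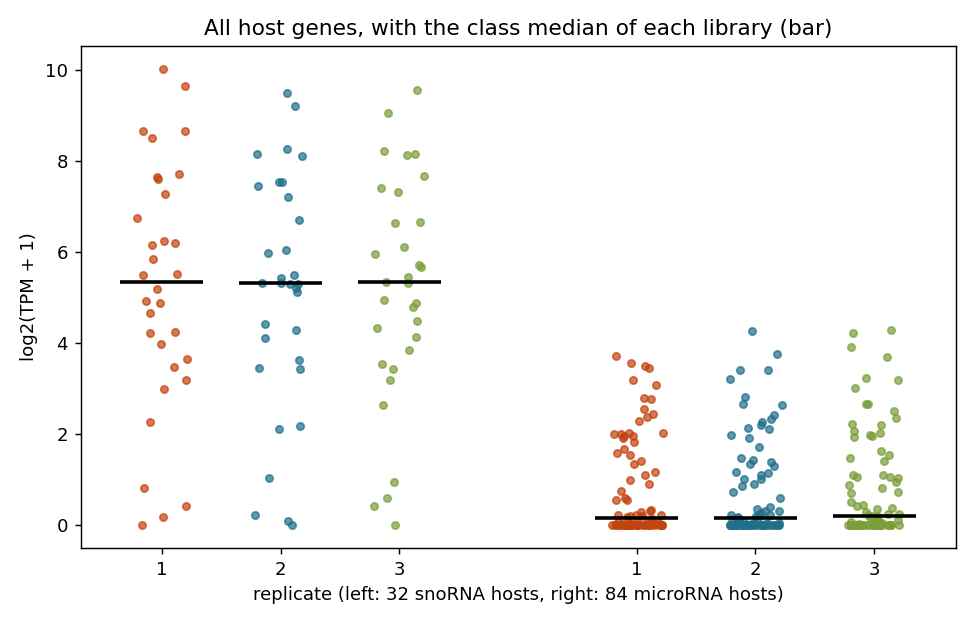
Level of every host gene, log2(TPM + 1), in each library: 32 snoRNA hosts on the left and 84 microRNA hosts on the right, 1 point per gene spread sideways for visibility, with the class median as a black bar. The snoRNA host medians sit at 5.31 to 5.35 and the microRNA host medians at 0.16 to 0.21.

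Both classes took small shares of the reads. The snoRNA hosts took 0.218%, 0.159% and 0.163% of all expected counts in replicates 1, 2 and 3, and the microRNA hosts 0.0165%, 0.0155% and 0.0184%. The snoRNA host share was highest in replicate 1, and the microRNA host share in replicate 3. The 3 hosts of highest mean TPM in each class held 42.4% of the snoRNA host counts and 19.5% of the microRNA host counts. In mean TPM 23 snoRNA hosts stood above MIR124-2HG, the highest microRNA host. At the limit of detection, the detected member of lowest mean was SNHG25 at 4.11 TPM among snoRNA hosts and MIRLET7IHG at 1.38 TPM among microRNA hosts, and the undetected members of highest mean were SNHG31 at 0.92 TPM and MIR210HG at 2.61 TPM. Detected snoRNA hosts were also shorter, with a median length of 1042 bases against 1773 for detected microRNA hosts and 2359 for all detected genes.

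GAS5 (chr1:173863901-173869045, minus strand), a host named for its rise in growth-arrested cells that carries 11 snoRNA genes, was the most abundant member. It stood at 1043, 718 and 758 TPM in replicates 1, 2 and 3, from 13708, 9377 and 7993 expected counts, a mean of 839.5 ± 177 TPM (SD, n = 3). Its mean ranked 160 of all 62754 genes. Replicate 1 was high and the other libraries lay close together.

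SNHG29 (chr17:16438987-16470648, plus strand), which carries SNORD49A, SNORD49B and SNORD65, stood at 808, 587 and 529.9 TPM, a mean of 642 ± 147 TPM. ZFAS1 (chr20:49278178-49289260, plus strand), host of the SNORD12 group and antisense to the start of ZNFX1, stood at 403, 307 and 299 TPM, a mean of 336 ± 58.0 TPM. SNHG5 (chr6:85677007-85678733, minus strand), host of SNORD50A and SNORD50B, stood at 401, 275 and 279 TPM, a mean of 318 ± 71.6 TPM. In each of these genes replicate 1 was the highest library and replicates 2 and 3 were near each other, as in GAS5. SNHG6, host of SNORD87, showed the same order at 364, 285 and 283 TPM, a mean of 311 ± 46.4 TPM.

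The next members varied less. SNHG1 (chr11:62851978-62855885, minus strand), the host of SNORD22 and of the SNORD25 to SNORD31 group, stood at 195, 184 and 202 TPM, a mean of 194 ± 8.98 TPM. SNHG32 (chr6:31834916-31839761, plus strand), host of SNORD48 and SNORD52, stood at 209, 185 and 168 TPM, a mean of 187 ± 20.3 TPM. SNHG19 (chr16:2154782-2155358, minus strand), host of SNORD60, stood at 199.5, 174 and 159 TPM, a mean of 177 ± 20.7 TPM. Across libraries the ranges of SNHG1, SNHG32 and SNHG19 overlapped, as did those of ZFAS1, SNHG5 and SNHG6. Compared within each library, SNHG32 stood above SNHG19, and ZFAS1 above SNHG5 and SNHG6, every time. The other orders within these groups changed from library to library.

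**Figure D2:**
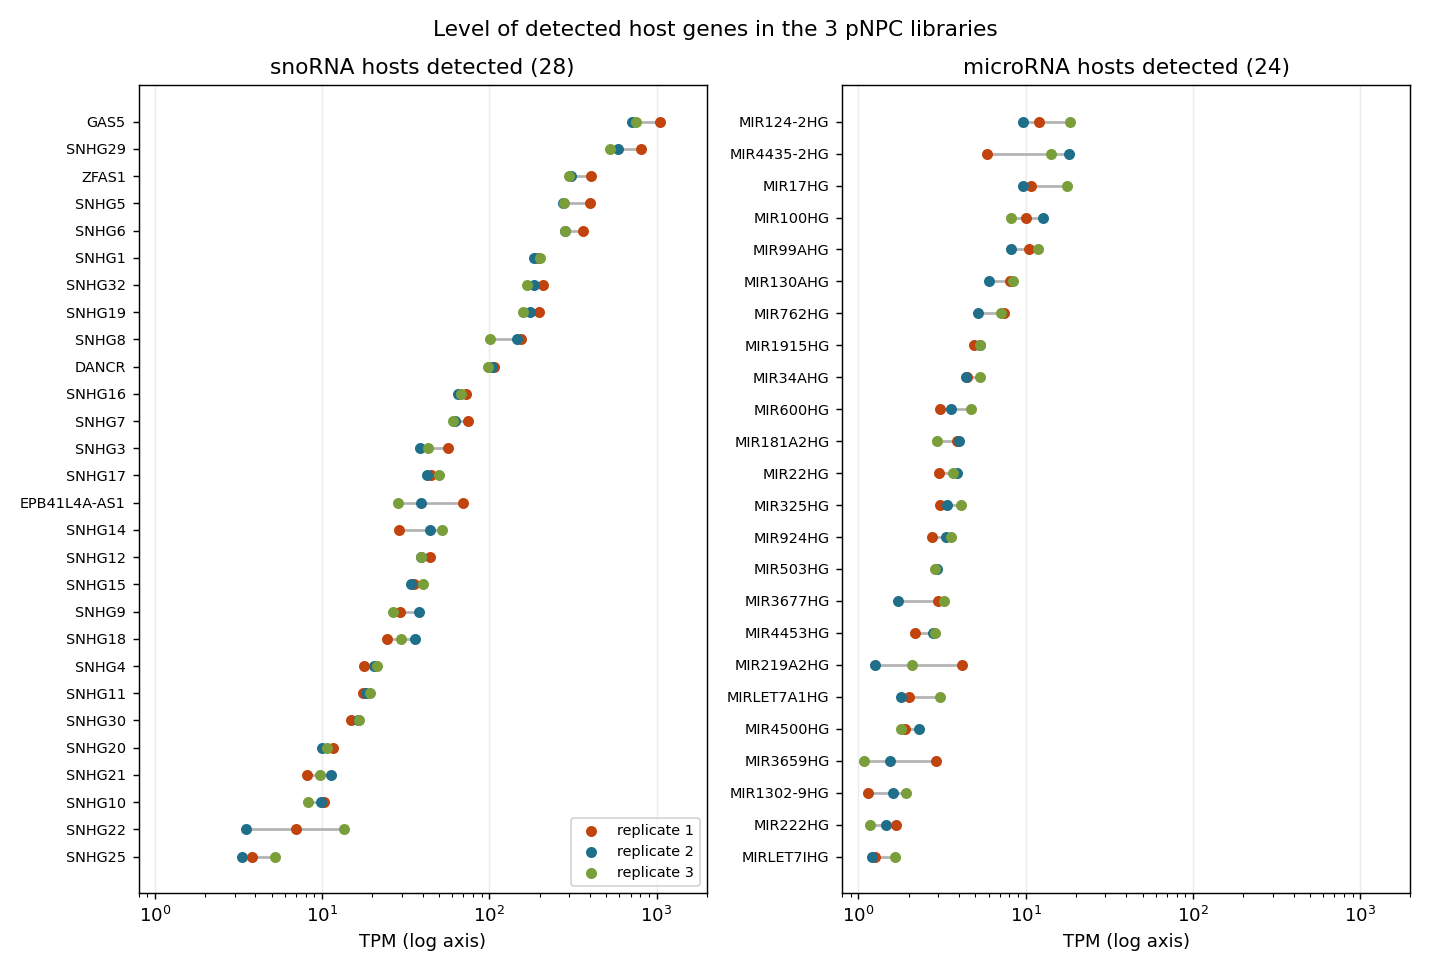
TPM on a log axis of the 28 detected snoRNA hosts (left) and the 24 detected microRNA hosts (right), sorted by mean, with 1 point per library and a grey line from the lowest to the highest library. The snoRNA hosts run from SNHG25 near 4.11 TPM to GAS5 at 839.5 TPM in the mean, and the microRNA hosts from 1.38 to 13.4 TPM.

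The other detected snoRNA hosts formed a graded series from SNHG8 (155, 147 and 100.3 TPM) and DANCR (107, 104 and 98.7 TPM), an RNA known for holding back differentiation, down to SNHG25. DANCR had the smallest coefficient of variation among the detected snoRNA hosts, 3.86%. SNHG22 had the largest, 63.2%, at 7.01, 3.53 and 13.5 TPM from 49, 22 and 64 counts. The undetected snoRNA hosts were SNHG31 (0.76, 1.07 and 0.93 TPM), SNHG26 (0.34, 0.17 and 0.34 TPM), SNHG28 (0.14, 0.07 and 0.52 TPM) and SNHG27. SNHG27 had 0 counts in all libraries. Taken as 3 counts in a single library, this allows up to 0.286 TPM, the largest such value over the libraries. SNHG27 is the 1 snoRNA host with no small RNA of its class inside its RefSeq position.

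The snoRNA hosts were then divided by the kind of small RNA they carry, a division made after the values were seen and given as a description. The 8 most abundant hosts all carried box C/D snoRNAs: 7 carried named snoRNAs of no other kind, and GAS5 carried 10 of them and 1 box H/ACA snoRNA. The 13 hosts with box C/D snoRNAs alone had median levels of 195, 174 and 159 TPM in replicates 1, 2 and 3, and 12 were detected. The 11 hosts with box H/ACA snoRNAs alone, among them SNHG3, SNHG7, SNHG8 and DANCR, had median levels of 45.0, 38.7 and 39.9 TPM, and 10 were detected. The ranges overlapped widely, from 0.28 to 642 TPM in the mean for box C/D hosts and from 0.92 to 134 TPM for box H/ACA hosts. The 4 hosts of scaRNAs, SNHG10, SNHG20, SNHG21 and SNHG22, were all detected and lay close together, between 8.01 and 10.8 TPM in the mean. The detected box C/D hosts were shorter, with a median length of 859 bases against 1240 for the detected box H/ACA hosts.

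Start sites were compared with the pyrimidine tract for which this class is known. The tract was written as a C at the first transcribed base followed by at least 4 bases that are each C or T, on the transcribed strand of the RefSeq promoter table (GRCh38.p14). It was found at the annotated start of 7 of the 28 snoRNA hosts in the table (25.0%), 3 of 64 microRNA hosts (4.69%), 42 of 62 cytosolic ribosomal protein genes (67.7%) and 1104 of all 27305 promoters (4.04%). With the tract allowed to begin within 5 bases of the annotated start on either side, the shares were 46.4%, 35.9%, 80.6% and 21.1%. Among detected hosts, the tract was at the annotated start of 7 of 24 snoRNA hosts (29.2%) and 3 of 22 microRNA hosts (13.6%). Within 5 bases it was found in 12 of 24 detected snoRNA hosts and 10 of 22 detected microRNA hosts. The classes thus lay closer together among detected hosts than among all hosts compared. The 7 hosts that carry the tract are shown with 15 bases before the start and 15 from it, the tract in capitals, and GAS5, the most abundant host, for comparison. Their positions are chr20:49278627-49278656 for ZFAS1, chr6:85678719-85678748 for SNHG5, chr6:31834901-31834930 for SNHG32, chr16:2155344-2155373 for SNHG19, chr1:28581859-28581888 for SNHG12, chr5:9546185-9546214 for SNHG18, chr5:139274086-139274115 for SNHG4 and chr1:173869031-173869060 for GAS5, with SNHG5, SNHG19, SNHG12 and GAS5 on the minus strand.
ZFAS1: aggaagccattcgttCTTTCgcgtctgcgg
SNHG5: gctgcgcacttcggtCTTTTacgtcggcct
SNHG32: ctcgccattttagttCTTTTTgcgaagtgg
SNHG19: ctcgcccgcccctgtCTTTTCggggtcgag
SNHG12: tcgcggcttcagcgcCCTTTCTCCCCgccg
SNHG18: ccgccgccgcgccgcCTCCTCCTCCTCCTC
SNHG4: ctcggctcccggctgCCCTTTCCCCTCCgg
GAS5: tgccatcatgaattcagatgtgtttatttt

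All 7 were detected, as were 24 of the 28 snoRNA hosts compared and the 3 microRNA hosts with the tract. Of the 7, ZFAS1, SNHG5, SNHG32 and SNHG19 were among the 8 most abundant snoRNA hosts. SNHG6, also among those 8, had no start in the comparison. SNHG12, which carries SNORD99 and 3 box H/ACA snoRNAs, stood at 44.4, 39.0 and 38.9 TPM. SNHG18 stood at 24.4, 36.2 and 29.7 TPM and SNHG4, host of SNORA74A, at 17.9, 20.5 and 21.3 TPM. A match is a run of letters at an annotated position and not a measured start, and an annotated start a few bases off or more misses a tract. A window without a match, such as that of GAS5, therefore does not show that the RNA lacks a tract.

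Among the microRNA hosts, those of miR-124 and miR-9, both neural microRNAs, stood at different levels. MIR124-2HG had the highest mean of the class, at 12.1, 9.60 and 18.5 TPM from 432, 282 and 399 counts, a mean of 13.4 ± 4.59 TPM (SD, n = 3) and rank 8189 of all genes. MIR124-1HG is named for another copy of the same microRNA, which is known to promote neuronal differentiation. RefSeq places 0 microRNA genes inside its position, so it counts as a miR-124 host by name only. MIR124-1HG stood at 2.55, 1.14 and 0.95 TPM from 145, 61 and 44 counts and was not detected by the rule. Replicate 1 was the highest library of MIR124-1HG, whose counts there had a Poisson 95% interval of 122 to 171 against 46.7 to 78.4 and 31.97 to 59.1. It was not the highest in TPM of MIR124-2HG, where replicate 3 led.

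The miR-9 hosts were all below the limit. MIR9-1HG stood at 0.16, 0.83 and 1.05 TPM from 3, 13 and 14 counts. MIR9-3HG stood at 0.13, 0.28 and 0.43 TPM from 11, 24 and 21 counts. LINC00461, which RefSeq names as the host of the remaining miR-9 gene and which lies outside the naming rule, stood at 0.43, 0.19 and 0.58 TPM from 25, 14 and 32 counts. Replicate 1 was the lowest library of both members, but with 3 and 11 counts there (95% intervals 0.62 to 8.77 and 5.49 to 19.7) the depth is thin.

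MIR17HG stood at 10.8, 9.60 and 17.6 TPM from 392, 331 and 536 counts, a mean of 12.7 ± 4.33 TPM. Replicate 3 was highest, and its count interval of 492 to 583 did not overlap those of 354 to 433 in replicate 1 and 297 to 369 in replicate 2, although replicate 3 was the shallowest library. Against other genes of its abundance this spread did not pass the test described below (edgeR unadjusted p = 0.1003, adjusted p = 0.956). MIR302CHG stood at 1.00, 1.02 and 0.86 TPM from 25.1, 18.7 and 16.9 expected counts, a mean of 0.96 ± 0.09 TPM, just under the limit in replicate 3. Its libraries did not differ beyond counting error, with 95% intervals of 16.3 to 37.0, 11.2 to 29.3 and 9.79 to 27.0 counts. Per length, MIR17HG was above MIR302CHG in every library, and the ranges did not overlap.

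The remaining abundant microRNA hosts carried clusters and single microRNAs of several kinds. MIR4435-2HG (chr2:111195866-111495161, minus strand) stood at 5.91, 18.2 and 14.1 TPM, a mean of 12.7 ± 6.27 TPM, with replicate 1 low. It has a close copy in the genome, CYTOR, and the division of reads between such copies makes its level uncertain. MIR100HG stood at 10.0, 12.7 and 8.16 TPM (mean 10.3 ± 2.26) and MIR99AHG at 10.4, 8.22 and 11.9 TPM (mean 10.2 ± 1.85), so the paralogous clusters shown above had hosts of overlapping level. MIR130AHG (chr11:57638376-57652901, plus strand) stood at 8.09, 6.03 and 8.45 TPM, a mean of 7.52 ± 1.31 TPM. MIR762HG (chr16:30875460-30895220, plus strand) stood at 7.45, 5.22 and 7.09 TPM, a mean of 6.59 ± 1.20 TPM. MIR1915HG (chr10:21492658-21497260, minus strand) stood at 4.90, 5.35 and 5.37 TPM, a mean of 5.21 ± 0.27 TPM. The library ranges of MIR124-2HG, MIR4435-2HG, MIR17HG, MIR100HG and MIR99AHG overlapped one another. Compared within each library, MIR124-2HG and MIR17HG stood above MIR99AHG every time. The places of MIR4435-2HG and MIR100HG changed from library to library.

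Hosts of other microRNAs with known roles lay lower. MIR34AHG, host of the p53 target miR-34a, stood at 4.48, 4.40 and 5.34 TPM. MIR503HG had the smallest spread of the detected microRNA hosts, at 2.91, 2.94 and 2.86 TPM. Among hosts of the let-7 seed, MIRLET7A1HG stood at 2.02, 1.79 and 3.09 TPM and MIRLET7IHG at 1.26, 1.21 and 1.66 TPM. MIR4500HG, whose microRNA has the same seed, stood at 1.91, 2.31 and 1.80 TPM, and MIRLET7BHG and MIR4458HG each reached 0.08 TPM in 1 library and were listed at 0 in the others. MIR137HG, host of the neuronal miR-137, stood at 0.16, 0.14 and 0.14 TPM. Counts were 0 in all libraries for 26 microRNA hosts, which allows up to 0.0481 to 1.20 TPM depending on length. They included MIR122HG, host of the liver microRNA miR-122, MIR205HG and MIR200CHG, hosts of epithelial microRNAs, MIR223HG, host of the myeloid miR-223, and MIR1-1HG, host of the muscle microRNA miR-1. The limits of 0.0481 to 1.20 TPM take 3 counts in the library where they give the highest TPM. The upper end of 1.20 TPM belongs to MIR200CHG. In that library alone, 0 counts do not place MIR200CHG under 1 TPM. By the rule, which asks for 1 TPM in every library, MIR200CHG was undetected.

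Whether a host varied between libraries more than genes of its abundance do was tested with an edgeR negative binomial fit over all genes. The fit covered 17046 genes, of which 271 were called at a Benjamini-Hochberg adjusted p of 0.05 (1.59%). It covered 59 hosts, 28 snoRNA and 31 microRNA hosts, and called 0 of them. At an unadjusted p under 0.05 there were 2 snoRNA hosts, SNHG14 and SNHG22, and 4 microRNA hosts, MIR210HG, MIR4435-2HG, MIR219A2HG and MIR124-1HG, against 7.35% of all genes tested. With DESeq2's dispersion trend the count of hosts called was also 0, and with a single dispersion for all genes it was 2, MIR210HG (adjusted p = 0.00667) and MIR219A2HG (adjusted p = 0.0486). Leaving out any library also gave 0. A p above the threshold does not show that levels were equal.

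SNHG14, a long imprinted transcript of the Prader-Willi region that holds 84 snoRNA genes, had the smallest p among snoRNA hosts (unadjusted p = 0.0014, adjusted p = 0.0737). It stood at 28.7, 43.9 and 52.0 TPM from 2276, 5053 and 5196 expected counts, with replicate 1 low, unlike most snoRNA hosts. RSEM lists 142 isoforms for it, and the abundance-weighted length it assigned was 3339 bases in replicate 1, 4678 in replicate 2 and 5193 in replicate 3. MIR210HG, host of the hypoxia-induced miR-210, had the smallest p among microRNA hosts (unadjusted p = 0.00384, adjusted p = 0.1501). It stood at 5.80, 0.88 and 1.14 TPM from 117, 34 and 26 counts, with replicate 1 high and its assigned length lowest there, at 1011 bases against 1747 and 1382. MIR219A2HG, host of miR-219a, a microRNA of oligodendrocyte differentiation, stood at 4.19, 1.26 and 2.10 TPM from 137, 41 and 53 counts (adjusted p = 0.4104).

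EPB41L4A-AS1 (chr5:112160526-112162501, plus strand), host of SNORA13, had the largest ratio of highest to lowest TPM, 2.46, among snoRNA hosts with a mean above 10 TPM. It stood at 70.0, 38.9 and 28.5 TPM from 1924, 1270 and 1019 expected counts, and its assigned length was 1297, 1505 and 2026 bases (adjusted p = 0.756). In EPB41L4A-AS1, SNHG14 and MIR210HG the library with the shortest assigned length was replicate 1. A TPM depends on that length, so the part of isoform assignment in these differences was not tested.

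**Figure D3:**
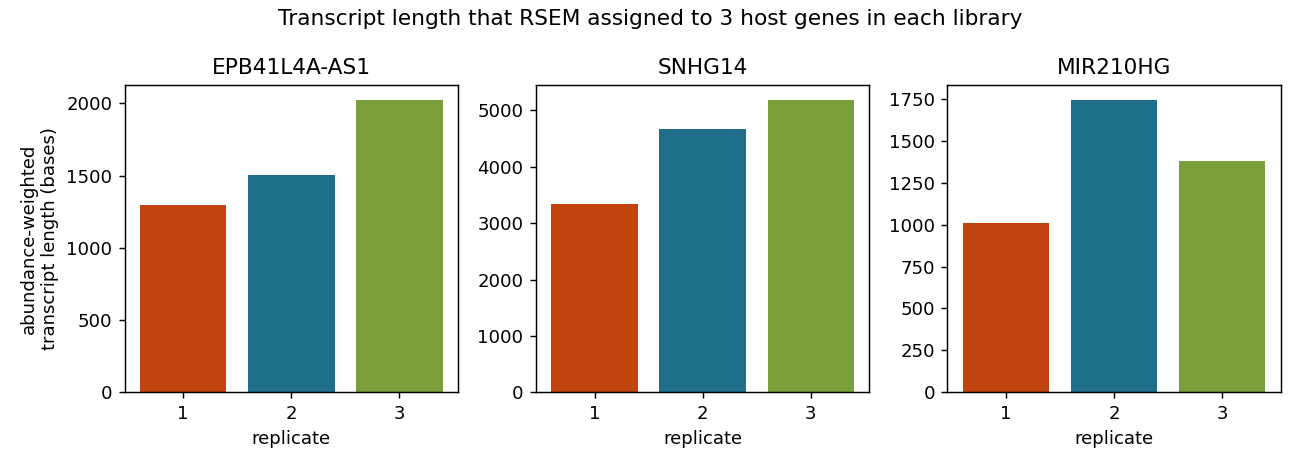
Abundance-weighted transcript length in bases that RSEM assigned to EPB41L4A-AS1, SNHG14 and MIR210HG, 1 bar per library from 0. Replicate 1 has the shortest bar in each panel, at 1297, 3339 and 1011 bases.

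Replicate 1 held more snoRNA host reads than the other libraries. On log2 CPM, counts scaled to the library total with TMM factors, replicate 1 was the highest library for 21 of the 28 snoRNA hosts tested and the lowest for 3, where it was the highest for 40.8% and the lowest for 41.1% of all genes tested. For the 31 microRNA hosts tested it was the highest for 13 and the lowest for 9. The median difference of replicate 1 from the mean of the others was 0.39 for snoRNA hosts, 0.11 for microRNA hosts and -0.01 for all genes tested. The microRNA host value turned to -0.063 without replicate 2 and was 0.23 without replicate 3, while the snoRNA host value stayed between 0.33 and 0.45. In TPM, replicate 1 was the highest library for 16 of the 28 detected snoRNA hosts, for 4 of the 24 detected microRNA hosts and for 3653 of all 14418 detected genes. Replicate 3 was the highest for 14 of the detected microRNA hosts and for 6065 of all detected genes.

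Several measures moved with this difference. The cytosolic ribosomal protein genes, which share short length and the tract at the start with part of the snoRNA hosts, were highest in replicate 1 in 77 of 77 cases, with a median difference of 0.46, and took 7.54%, 5.53% and 5.59% of all counts. Genes of 500 to 1500 bases of any kind had a median difference of 0.23, and replicate 1 was the highest for 2402 of 3791. The fragment length implied by the effective lengths of genes over 5000 bases was 217 bases in replicate 1 and 254 and 259.9 bases in replicates 2 and 3. With the trend of the difference on length removed, the medians were 0.15 for snoRNA hosts, 0.14 for microRNA hosts, 0.17 for ribosomal protein genes and 0.01 for genes of 500 to 1500 bases. Of the marker lists, the neural progenitor genes had a median difference of 0.94 (0.68 with the length trend removed), with replicate 1 the highest for 6 of 9 tested. The neuron markers had a median of 0.52 (0.73), with replicate 1 the highest for 6 of 9, and the mesenchyme and neural crest markers one of -0.45 (-0.44), with replicate 1 the lowest for 6 of 8. The part of fragment length, transcript length and cell makeup in the snoRNA host difference was not tested beyond these values. In bulk RNA, fewer cells of a type and less RNA per cell cannot be told apart.

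**Figure D4:**
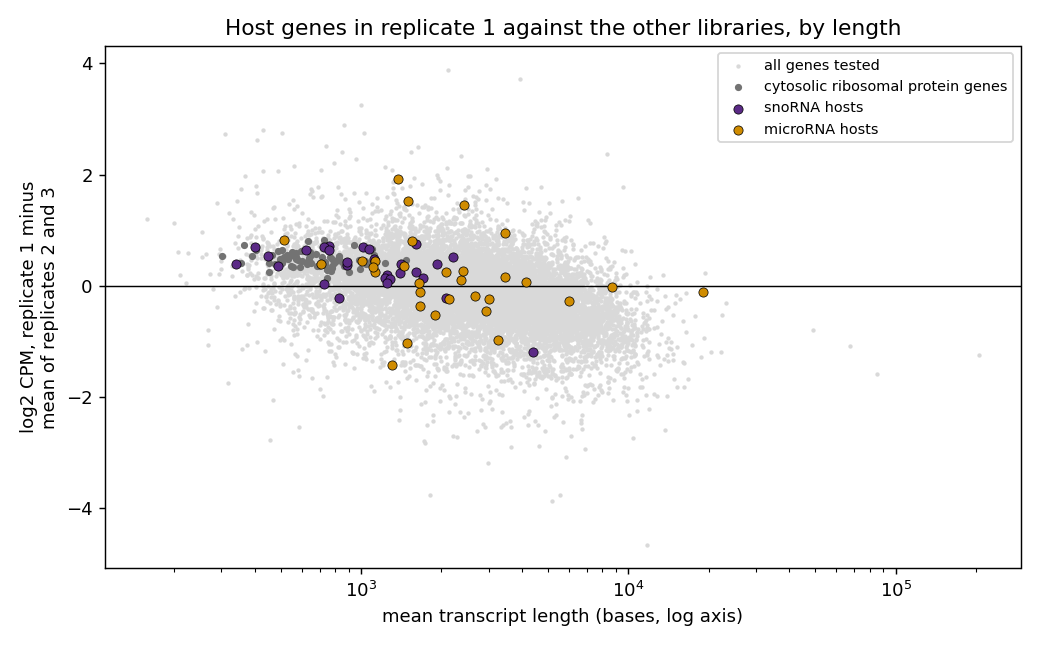
Difference of log2 CPM between replicate 1 and the mean of replicates 2 and 3 against mean transcript length in bases (log axis), for the 28 snoRNA hosts, 31 microRNA hosts, 77 ribosomal protein genes and all 17046 genes tested. Short genes lie above 0 more often than long ones, most snoRNA hosts lie above 0, and SNHG14 lies at -1.18.

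The machinery that handles these hosts was present in every library. All 8 genes of the snoRNP core, the proteins bound to mature snoRNAs, were detected, with median log2(TPM + 1) values of 7.80, 7.68 and 7.59, and 0 of 8 were called for spread. The highest were the box C/D methyltransferase FBL at 625 ± 56.6 TPM (SD, n = 3), NOP56 at 464 ± 50.4 TPM and the H/ACA protein NOP10 at 316 ± 23.9 TPM, and the lowest was GAR1 at 61.9 ± 4.46 TPM. All 12 assembly and modification factors were detected at medians of 5.86, 6.06 and 6.09, led by the helicase subunit RUVBL2 at 139 ± 3.90 TPM, the nucleolar chaperone NOLC1 at 126 ± 18.0 TPM and PIH1D1 at 109 ± 6.77 TPM, with NUFIP1 lowest at 11.4 ± 1.09 TPM, and 0 of 12 were called. The 20 protein-coding hosts of snoRNAs outside the ribosomal protein genes were all detected at medians of 7.93, 7.92 and 7.81, and 0 of 20 were called. They ran from the translation factor EEF1A1 at 12670.0 ± 604.5 TPM, RACK1 at 2227 ± 272 TPM and EEF2 at 1648 ± 222 TPM down to PPAN at 62.6 ± 6.52 TPM.

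All 10 nonsense-mediated decay factors were detected, with SMG5 at 101.1 ± 11.1 TPM, UPF3A at 88.1 ± 1.54 TPM and UPF3B at 80.6 ± 5.11 TPM highest and SMG8 at 17.8 ± 1.22 TPM lowest. SMG1, the kinase of the pathway, was the 1 of 10 called for spread (adjusted p = 5.2e-05), at 5.29, 19.1 and 29.4 TPM, and it has close copies elsewhere in the genome that can share its reads. All 11 microRNA processing and Argonaute genes were detected, at medians of 5.28, 5.44 and 5.68. RAN, which also serves general nuclear transport, led them at 1071 ± 105 TPM, followed by DROSHA at 82.3 ± 3.69 TPM and PRKRA at 68.2 ± 2.83 TPM, with AGO3 lowest at 7.01 ± 2.74 TPM. DICER1 (12.03, 34.6 and 39.1 TPM, adjusted p = 0.0262) and AGO2 (4.44, 13.7 and 14.5 TPM, adjusted p = 0.0411) were called for spread, 2 of 11 against 1.59% of all genes. The tested genes of this list had a median length of 4550 bases and the decay factors 4111, against 2430 for all genes tested. Their median differences of replicate 1 from the others were -0.23 and -0.06. With the length trend removed they were -0.01 and 0.08. The part of transcript length in the calls was not tested. In SMG1, DICER1 and AGO2 replicate 1 was the lowest library, and without it 0 of the 3 passed, with adjusted p = 0.645 for SMG1 and 1.00 for DICER1 and AGO2. SMG1 passed without replicate 2 or 3 (adjusted p = 0.00264 and 0.0158) and with a single dispersion (0.00312). DICER1 and AGO2 did not pass without replicate 2 (0.1555 and 0.1693), without replicate 3 (0.1835 and 0.4064) or with a single dispersion (0.1445 and 0.2197). AGO2 also missed with no filter on low counts (0.0743) and with DESeq2's dispersion trend (0.0536). These settings were chosen for the list genes after seeing the data.

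MicroRNAs also lie in introns of protein-coding genes. Of 18 such genes 16 were detected, with medians of 5.61, 5.64 and 5.73 on the log2(TPM + 1) scale, and 0 of the 17 tested were called. MCM7, a replication helicase subunit that hosts a paralogue of the MIR17HG cluster, stood at 328, 368 and 351 TPM, a mean of 349 ± 19.9 TPM. SMC4, a condensin subunit that hosts miR-15b and miR-16, stood at 141, 160.3 and 191 TPM, a mean of 164 ± 25.2 TPM, and EVL at 146 ± 14.0 TPM. The lowest was TRPM3, at 0.24, 0.34 and 0.51 TPM. Per length, MCM7 was above MIR17HG in every library.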

How the data were processed

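RNA-seq tables of 3 pNPC WT libraries were analysed as 1 group. Nothing in the labels ties the replicates to separate cultures. Every p-value therefore measures only how these libraries differ, and that spread may be technical. RSEM 1.3.1, STAR 2.7.11a, Trim Galore 0.6.10 and the build GRCh38 are named per the submitters' processing notes; the annotation release, strand setting and read layout are not given in these sources. Each gene table, per the file headers, lists TPM, FPKM and expected count beside length and effective length. The deposited expected count is RSEM's estimate of reads, not normalized, and 86.8% to 87.8% of values were whole. The deposited TPM is scaled by the authors for effective length and depth, and the deposited FPKM served 1 alternative. RSEM divides reads among overlapping and similar genes, and without a known strand antisense pairs cannot be told apart.

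The members and gene lists were chosen with earlier results of these data known. Named in full were the 8 hosts of highest mean TPM in each class, MIR17HG, MIR302CHG and the MIR9 and MIR124 hosts, and any host called for spread; of other lists, the 3 highest genes, the lowest and those called. Hosts named for other features were chosen after their values were seen. R 4.3.3 with edgeR 4.0.16, which loads limma 3.58.1, tested spread on rounded expected counts, with filterByExpr, TMM and an intercept-only fit, comparing the residual deviance at the trended dispersion with a chi-square; the common biological coefficient of variation was 22.6%. The script was tested on simulated data. CPM were computed from the counts with a prior count of 1, and the length trend is a lowess fit with a span of 0.3. Alternatives used other TPM minimums and pseudocounts, other scalings, DESeq2 1.42.0 and each library left out. Coordinates are 1-based from RefSeq GRCh38.p14, which placed 32 snoRNA hosts and 81 microRNA hosts; 31 and 79 of them held a small RNA of their class. Python 3.11.15 handled the tables with pandas 2.3.3, scipy 1.17.1 and numpy 2.4.6; matplotlib 3.10.9 drew the figures.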

Additional observations from a re-analysis of the deposited data

How the results depend on the processing

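Of 60 alternatives to 10 results, 42 stayed within the spread between libraries or within 1.5 times a count. For the medians, their difference and the shares, leaving out a library could not move the mean beyond that spread. Those alternatives were thus counted as unchanged by construction. For the replicate 1 differences, the spread was itself taken from the values without replicate 2 and without replicate 3. The count of 42 is therefore not a measure of robustness. With a minimum of 5 TPM, 7 microRNA hosts were detected. With a pseudocount of 0.1 the snoRNA host median was 5.30, the microRNA host median -2.10, a log2 value under 0 because most members are under 1 TPM, and their difference 7.41. Over detected members alone the medians were 5.54 and 2.13 and the difference 3.41. With CPM, not scaled for length, they were 4.57, 0.12 and 4.46. With means in place of medians they were 5.16, 0.81 and 4.35. As a share of TPM the classes took 0.379% and 0.0134%. A single dispersion called 2 hosts. With the length trend removed the snoRNA host difference of replicate 1 was 0.15. The microRNA host difference of replicate 1 turned to -0.063 without replicate 2 and was 0.23 without replicate 3. Leaving out a library gave 28 snoRNA hosts and 25 to 26 microRNA hosts detected, medians of 5.33 to 5.34 and 0.16 to 0.19, differences of 5.14 to 5.17, shares of 0.161% to 0.191% and 0.0160% to 0.0175%, a snoRNA host difference of 0.33 to 0.45 and 0 hosts called. Hosts under 1 TPM rest on few counts. No paired analysis was possible because there is 1 group.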
